A study of Mus musculus with 6 samples.

Results

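Amphiregulin (Areg), the other ligands of the epidermal growth factor family except Egf itself, and the 4 ErbB receptors were examined in whole mouse kidneys at postnatal day 13. The 10 genes were taken by their symbols (ligands Areg, Ereg, Hbegf, Tgfa, Btc and Epgn, and receptors Egfr, Erbb2, Erbb3 and Erbb4) out of 24422 gene symbols counted. The group was chosen by measured values of the same comparison, because Areg was among the genes with the largest increases. The counts and fold changes of the 10 genes are therefore given as a description, and no p-value is attached to them. Poly-A RNA was sequenced from 3 Control kidneys, labelled wild type, and 3 TfR1 knockout kidneys, labelled Tfr1f/f;SixCre, all from C57BL/6 mice at day 13 on an iron-sufficient diet with 220 ppm iron. In the knockout, exons 3 and 4 of the transferrin receptor gene Tfrc (TfR1) were floxed and deleted by Six2Cre, which is expressed in nephron progenitors, and the study describes receptor-positive cells that escaped deletion. The study's methods and legends give the sequenced controls as wild type littermates, and in another experiment at this age the same name stands for littermates with the floxed allele.

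Total gene counts ran from 16591156 to 22898008 per library. Tfrc itself overlapped between the groups (5229 ± 1434 normalized counts in Control and 5640 ± 1482 in knockout kidneys, mean ± SD, n = 3 per group, with a log2 fold change of 0.11, SE 0.29 and DESeq2 adjusted p = 0.853), so its counts give no check of the labels. A pair of Control libraries stood apart. Control 1 held adrenal transcripts, with a summed level of 16142 normalized counts over 5 adrenal markers, and TfR1 knockout 3 held 2315, against 140 to 367 in the other 4 libraries. Control 3 had a summed fibroblast marker level of 105506, against 27865 to 52095 in the other 5 libraries. For some of the genes whose values depend on these libraries, values without them are given. In bulk tissue, fewer cells of a type and less RNA per cell cannot be told apart.

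The ligands of this family are made as membrane-anchored precursors, and sheddases such as Adam17 release the soluble growth factor. Areg, Tgfa and Epgn bind the receptor encoded by Egfr, whereas Hbegf, Btc and Ereg bind Egfr and Erbb4. Ligand binding drives the receptors into pairs, which signal through Ras and the ERK kinases. Erbb2 has no known ligand of its own and Erbb3 has little kinase activity, so both act as partners of the other receptors. In the kidney, Egf is made mainly by the thick ascending limb and the distal convoluted tubule, and the family is known for its part in tubule growth and repair.

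The ligands share an EGF-like motif of 6 cysteines, which is the part that contacts the receptor. The coding stretches of the motif, except that of Hbegf, which is not reported here, are shown because they are what makes these genes one family. They were read from the GENCODE transcripts of the mm9 (NCBIM37) build, on the coding strand from 5′ to 3′, with the 6 cysteine codons in capitals:
Areg: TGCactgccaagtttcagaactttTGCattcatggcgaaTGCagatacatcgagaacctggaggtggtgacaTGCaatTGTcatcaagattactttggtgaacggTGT
Ereg: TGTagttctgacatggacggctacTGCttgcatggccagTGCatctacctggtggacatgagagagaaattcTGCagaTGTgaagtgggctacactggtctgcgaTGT
Tgfa: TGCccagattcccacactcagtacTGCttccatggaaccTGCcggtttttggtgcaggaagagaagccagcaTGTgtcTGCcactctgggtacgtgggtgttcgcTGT
Btc: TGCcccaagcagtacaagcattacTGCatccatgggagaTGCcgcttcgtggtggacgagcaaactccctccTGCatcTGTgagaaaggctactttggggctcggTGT
Epgn: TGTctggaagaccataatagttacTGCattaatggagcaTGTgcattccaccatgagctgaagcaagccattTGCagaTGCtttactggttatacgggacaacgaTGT
In all 5 transcripts the motif took 36 codons (108 bases), with 7, 4, 10, 1 and 8 residues between successive cysteines, and was split by an intron between exons 3 and 4. It began at codon 139 in Areg, 61 in Ereg, 46 in Tgfa, 69 in Btc and 59 in Epgn. Placed against the Areg stretch without gaps, Btc had 62 identical bases of 108, Ereg 58, Epgn 55 and Tgfa 51. Of the 5, only Tgfa lies outside chromosome 5 (chromosome 6, 86145420 to 86225151, plus strand).

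Of the 10 genes, 8 had enough counts for an adjusted p, and 5 of these passed the threshold of an adjusted p under 0.05, with all 5 higher in knockout kidneys and 0 lower (DESeq2 Wald test, no fold threshold). Across all genes, 7.74% of 16509 tested passed as higher and 7.18% as lower. The comparison was the one behind the choice of these genes, and nothing is read from this difference. The 5 were the ligands Areg, Hbegf and Tgfa and the receptors Erbb3 and Erbb4. With edgeR's quasi-likelihood test, which called fewer genes overall (3.22% of 15308 higher and 2.8% lower), Areg and Tgfa passed and the other 8 did not pass or were not tested. For the same 5 genes, every knockout library lay above every Control library, as it did for 16.9% of all genes tested. The median log2 fold change over the 8 tested genes was 0.92, beside 0.01 over all 16509.

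**Figure D1:**
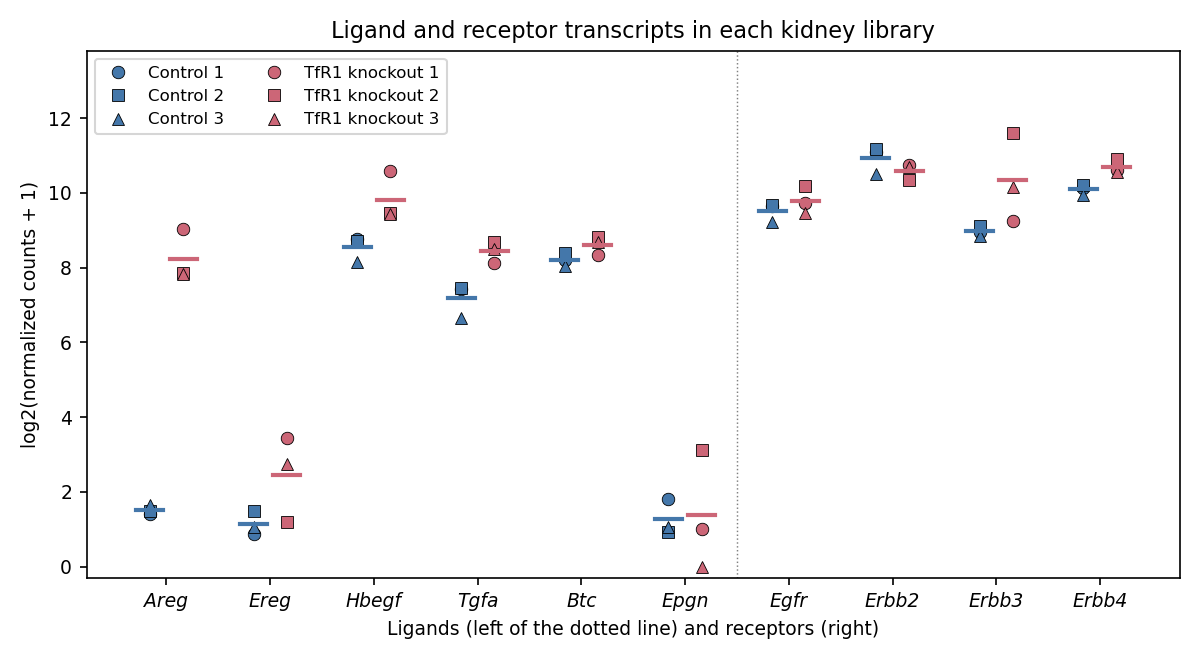
Normalized counts of the 6 ligands and 4 receptors in each of the 6 libraries, as log2 of the value plus 1 on the vertical axis, with Control in blue, TfR1 knockout in red, and a line at the mean of the log2 values of 3 libraries. The groups were apart for Areg, Hbegf, Tgfa, Erbb3 and Erbb4, and Ereg and Epgn were near the floor in every library.

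Areg (chromosome 5, 91568641 to 91577458, plus strand, 6 exons) was almost absent from Control kidneys. Each Control library held 2 counts, and the knockout libraries held 527, 179 and 238 counts. After division by the size factors, the values were 1.65, 1.82 and 2.15 in Control and 524, 229 and 225 in knockout libraries. TfR1 knockout 1 was more than double either of the other knockout libraries, and the lowest knockout library was still far above the highest Control library. The ratio of the summed counts, corrected for the size factors, was 179 (exact 95% interval 82.1 to 490, from 944 against 6 counts), which covers counting error only. The fitted log2 fold change was 7.46 (SE 0.73), and it ran from 6.94 to 7.67 when each library was left out in turn.

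The Areg promoter is shown because it holds a complete cAMP response element close to the start site. It is the 250 bases before the RefSeq start site in the GRCm38.p6 build (chr5:91139349-91139598, plus strand), 5′ to 3′, with the response element and the TATA box in capitals:
Areg promoter: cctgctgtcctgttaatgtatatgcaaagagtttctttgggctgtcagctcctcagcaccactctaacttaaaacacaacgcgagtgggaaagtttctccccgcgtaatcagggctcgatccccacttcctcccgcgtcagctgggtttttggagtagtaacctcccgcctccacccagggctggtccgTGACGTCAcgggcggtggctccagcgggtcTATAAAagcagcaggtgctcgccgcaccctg
The response element, searched as TGACGTCA (the same letters on both strands), began 61 bases and the TATA box, searched as TATAAA on both strands, 31 bases before the start site. Over the 250 bases before each start site, the response element was found in 508 of 32851 mouse promoters (1.55%). Of the 7 genes described here with a promoter in the RefSeq table, it was found in Areg alone. The TATA box letters were found in 12.4% of all promoters and in Areg and Epgn. An AP-1 motif, searched as TGANTCA on both strands, was found in 6.75% of all promoters and in 0 of the 7. These are matches of letters, and no binding was measured.

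Hbegf, heparin-binding EGF-like growth factor, also serves as the receptor for diphtheria toxin. It had 434, 419 and 284 normalized counts in Control and 1542, 697 and 684 in knockout libraries, so the groups did not overlap and TfR1 knockout 1 again stood highest. The log2 fold change was 1.36 (SE 0.37), and it was 0.87 without TfR1 knockout 1. Hbegf passed with DESeq2 and did not pass with edgeR.

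Tgfa, transforming growth factor alpha, had 170, 175 and 100 normalized counts in Control and 275, 409 and 361 in knockout libraries. The groups did not overlap, and here TfR1 knockout 1 was the lowest of the knockout libraries. The log2 fold change was 1.23 (SE 0.30), and it ran from 1.01 to 1.37 with each library left out.

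Btc, betacellulin (chromosome 5, 91786287 to 91831939, minus strand), had 294, 332 and 260 normalized counts in Control and 319, 454 and 411 in knockout libraries. The lowest knockout library lay below the highest Control library, and the log2 fold change of 0.42 (SE 0.23) did not pass the threshold.

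The other 2 ligands were at or near the limit of detection. Ereg, epiregulin (chromosome 5, 91503643 to 91522675, plus strand), had 1, 2 and 1 counts in Control and 10, 1 and 6 in knockout libraries, a size-corrected ratio of the sums of 4.84 (exact 95% interval 1.58 to 19.8, counting error only). TfR1 knockout 2 was no higher than the Control libraries. Epgn, epigen (chromosome 5, 91456490 to 91464241, plus strand), had 3, 1 and 1 counts in Control and 1, 6 and 0 in knockout libraries, a ratio of 1.60 (0.436 to 6.38). The groups overlapped for both genes, and neither had an adjusted p at this depth.

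**Figure D2:**
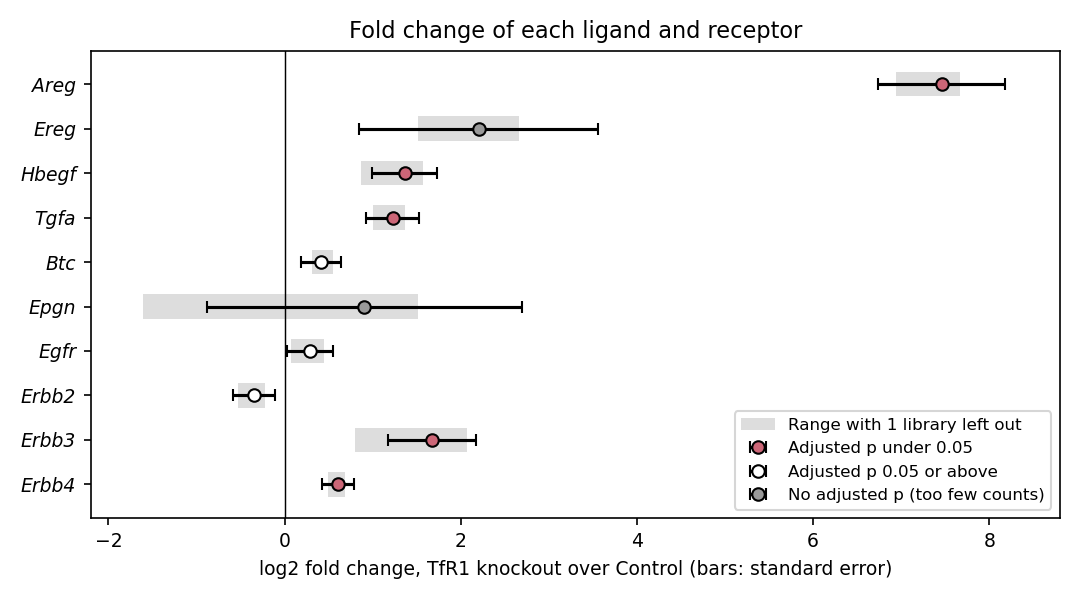
Log2 fold change of TfR1 knockout over Control for each ligand and receptor (points) with its DESeq2 standard error (bars), and the range of the fold change when each of the 6 libraries was left out (grey). Areg stood at 7.46, the other 4 genes that passed the threshold lay between 0.61 and 1.68, and the range of Epgn crossed 0.

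Among the receptors, Egfr, which binds all of these ligands (chromosome 11, 16652206 to 16818161, plus strand), had 796, 816 and 598 normalized counts in Control and 840, 1162 and 703 in knockout libraries. The groups overlapped, and the log2 fold change was 0.29 (SE 0.26). Erbb2 (chromosome 11, 98273784 to 98299030, plus strand) had 2178, 2305 and 1457 in Control and 1727, 1288 and 1654 in knockout libraries. The knockout values lay on both sides of Control 3, and the log2 fold change was -0.35 (SE 0.24), the only negative value among the 10 genes.

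Erbb3, the partner of Erbb2 in the response to neuregulins (chromosome 10, 128004579 to 128026708, minus strand), had 498, 551 and 462 normalized counts in Control and 611, 3092 and 1131 in knockout libraries. The knockout libraries were spread far more widely than the Control libraries (SD 1309 against 44.8), and TfR1 knockout 2 was the highest. The log2 fold change was 1.68 (SE 0.50), it was 0.80 without TfR1 knockout 2, and it no longer passed without that library or without Control 1.

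Erbb4, a receptor for neuregulins as well as for Hbegf and Btc (chromosome 1, 68078760 to 69154633, minus strand), had 1114, 1184 and 982 normalized counts in Control and 1572, 1932 and 1508 in knockout libraries. The groups did not overlap and both were tight (SD 103 and 229). The log2 fold change of 0.61 (SE 0.18) ran from 0.50 to 0.68 with each library left out, and it did not pass without Control 1 or without Control 2. Neither receptor passed with edgeR.

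The knockout libraries did not rank alike across the 10 genes. In normalized counts of the 8 with an adjusted p, TfR1 knockout 1 was highest for 3 (Areg, Hbegf and Erbb2) and TfR1 knockout 2 for 5 (Tgfa, Btc, Egfr, Erbb3 and Erbb4). This order depends on the size factors, of which that of TfR1 knockout 2 was the smallest (0.7816). Before division, TfR1 knockout 3 was above TfR1 knockout 2 for Tgfa (382 against 320 counts), Btc (435 against 355) and Erbb4 (1594 against 1510). For Erbb2, TfR1 knockout 3 was then just above TfR1 knockout 1 (1748 against 1737 counts). Control 3 was the lowest Control library for all 7 of the genes with an adjusted p other than Areg, whose Control counts were equal. Aqp2, the water channel of the collecting duct, had its highest value in TfR1 knockout 2 as well (50719 normalized counts, against 17805 and 23564 in the other knockout libraries and 2409 to 5747 in Control).

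To compare genes with each other, normalized counts were divided by the exon length of the gene in kilobases. In Control kidneys, Hbegf was the highest of the 6 ligands (160 ± 34.7 normalized counts per kilobase, mean ± SD, n = 3), followed by Btc (106 ± 12.8) and Tgfa (39.5 ± 11.2), and these neighbours did not overlap. Areg (1.56 ± 0.214), Epgn (0.844 ± 0.488) and Ereg (0.30 ± 0.125) were far below, and the ranges of Areg and Epgn overlapped. In knockout kidneys the order of levels per kilobase was Hbegf (411 ± 207), Areg (272 ± 143), Btc (141 ± 24.7) and Tgfa (92.7 ± 18.04). Hbegf and Areg overlapped in range, although Hbegf was the higher in each of 3 libraries, while Areg lay above Btc and Btc above Tgfa without overlap.

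Among the receptors, Erbb2 was the highest in Control kidneys (380 ± 87.7 normalized counts per kilobase), and its range did not overlap that of the next, Erbb4 (88.5 ± 8.33). Erbb4 and Erbb3 (83.7 ± 7.44) overlapped, and Egfr was the lowest (65.1 ± 10.6). In knockout kidneys Erbb2 (299 ± 45.1) overlapped Erbb3 (268 ± 218), and Erbb3 overlapped Erbb4 (135 ± 18.5). Erbb3 was above Erbb2 in TfR1 knockout 2 (514 against 247). Egfr (79.6 ± 20.8) was again the lowest, and Erbb4 did not overlap it. Of the summed receptor level, Erbb3 made up 12.5 to 15.7% in Control libraries and 16.0, 50.4 and 27.3% in knockout libraries. Egfr kept a narrow share, from 9.0 to 11.7% over the 6 libraries.

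Egf, the founding ligand of the family, was the main ligand transcript in Control kidneys. It had 14570, 18709 and 2314 normalized counts in Control and 559, 622 and 152 in knockout libraries, with Control 3 far below the other Control libraries and still above each knockout library. It fell by 4.74 on the log2 scale (SE 0.94, DESeq2 adjusted p = 1.99e-05), and edgeR called it as well. The log2 fold change was -5.23 without Control 3 and -4.25 without Control 2. Markers of the segments that make Egf moved the same way: 5 of 6 thick ascending limb markers and 3 of 4 distal convoluted tubule markers were lower at an adjusted p under 0.05 (all genes tested, 7.18%). The summed level of the first list was 49129 to 97640 in Control and 14132 to 26284 in knockout libraries, and that of the second 18844 to 36496 and 8234 to 14534. None of these markers was at 0, and their part in the Egf result was not tested.

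When the levels per kilobase of the 7 ligands that bind the Egfr product were added up, Egf made up 90.1, 91.9 and 66.6% of the sum in Control libraries and 8.38, 14.6 and 4.23% in knockout libraries. Areg made up 0.0407, 0.0356 and 0.247% in Control and 31.4, 21.4 and 25.0% in knockout libraries. Hbegf went from 4.15 to 16.5% across Control libraries to 33.0 to 46.6% across knockout libraries, and was the largest single share in each knockout library. The sum of all 7 was 3381, 4254 and 726 normalized counts per kilobase in Control and 1394, 891 and 752 in knockout libraries, so that Control 3 lay below each knockout library. Without Egf, the sum of the other 6 was 336, 344 and 242 in Control and 1277, 761 and 721 in knockout libraries, with no overlap.

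**Figure D3:**
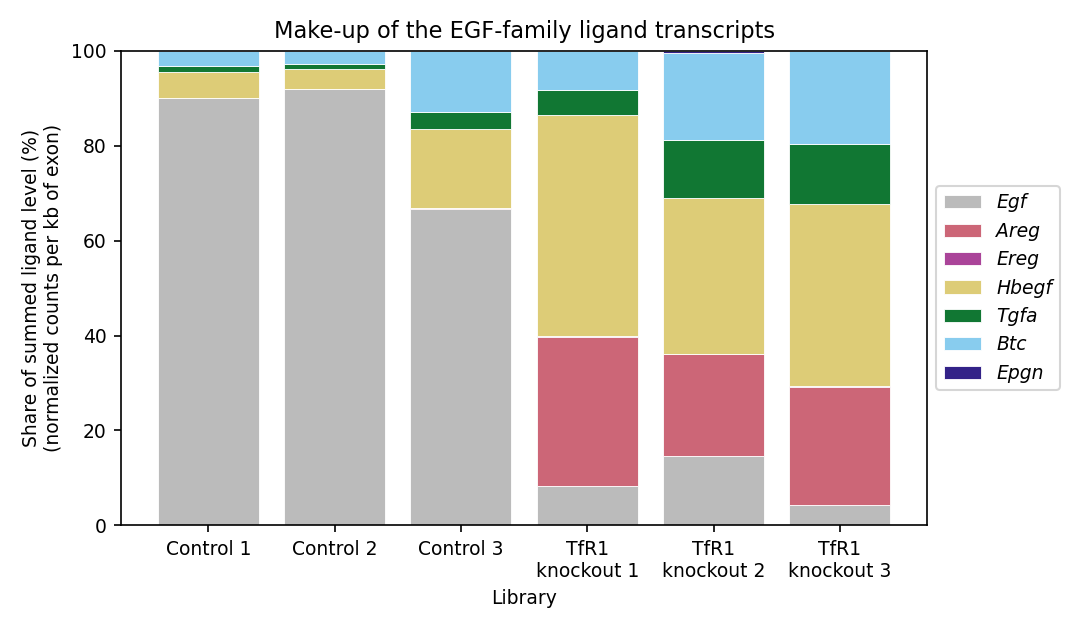
Share of each of 7 ligands in their summed transcript level (normalized counts per kilobase of exon, in percent on the vertical axis) in each of the 6 libraries. Egf (grey) made up 66.6 to 91.9% in the Control libraries and 4.23 to 14.6% in the knockout libraries, where Hbegf and Areg were the largest shares.

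Areg, Ereg, Epgn and Btc lie side by side on chromosome 5 within 375 kb, with no other counted gene between them. From Epgn to Ereg the gap was 39.4 kb, from Ereg to Areg 46.0 kb and from Areg to Btc 209 kb. Areg passed, Btc did not, and Ereg and Epgn had too few counts for an adjusted p. Whether the 4 ligands moved together therefore cannot be told from these calls. Their fitted log2 fold changes were 7.46 for Areg, 2.20 for Ereg, 0.905 for Epgn and 0.42 for Btc. That of Epgn fell to -1.61 with a single library left out. Within 500 kb of the 4 ligands, 12 other genes were counted, 11 had an adjusted p, and 3 passed as higher and 2 as lower (all genes, 7.74% and 7.18%).

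The 3 higher neighbours were chemokines that attract neutrophils. Cxcl1 had 19.8, 12.7 and 7.53 normalized counts in Control and 214, 79.3 and 52.0 in knockout libraries (log2 fold change 3.10, SE 0.63, DESeq2 adjusted p = 3.05e-05). Cxcl2 (log2 fold change 3.51, SE 0.89, adjusted p = 0.00135) and Cxcl5 (3.39, SE 1.00, adjusted p = 0.00795) rested on 3 to 10 and on 1 to 3 counts per Control library. The log2 fold changes moved with single libraries: Cxcl1 was at 2.28 without TfR1 knockout 1, and Cxcl2 at 4.51 without Control 3 and Cxcl5 at 4.01 without Control 1. Like Areg, Cxcl1 and Cxcl2 had their highest value in TfR1 knockout 1. The lower neighbours were Afm, the vitamin E-binding protein afamin, which fell by 1.87 on the log2 scale (SE 0.24, adjusted p = 8.31e-13), and 5830473C10Rik, which fell by 2.13 (SE 0.51, adjusted p = 0.000697). Of the 5, edgeR called Cxcl1, Afm and 5830473C10Rik, and Cxcl5 did not pass without Control 2 or without TfR1 knockout 3.

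**Figure D4:**
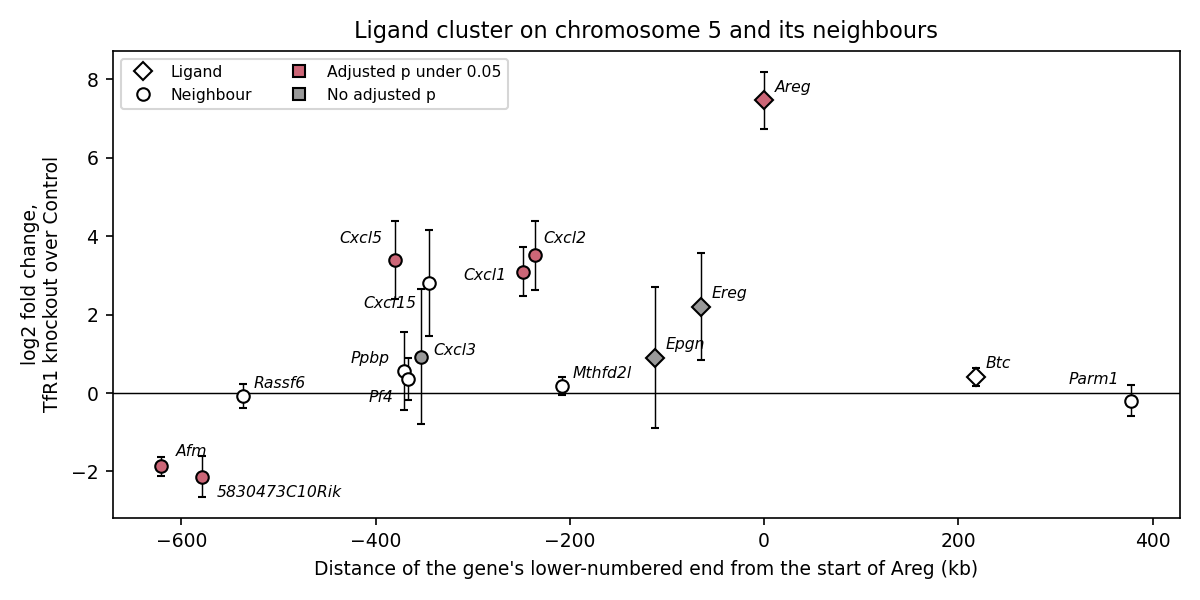
Log2 fold change (vertical axis, bars are DESeq2 standard errors) of the 4 chromosome 5 ligands (diamonds) and the 12 genes within 500 kb of them (circles), by distance from the start of Areg in kb. Areg stood at 7.46, above Cxcl1, Cxcl2 and Cxcl5 at 3.10 to 3.51, and Btc, Mthfd2l and Parm1 lay near 0.

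Other genes of the pathway were taken as 5 lists with 71 genes in all, of which 69 had an adjusted p. Of these, 18 were higher and 4 lower, where 7.74% and 7.18% of all genes tested were (edgeR, 9 higher and 1 lower, against 3.22% and 2.8% of all genes). The median log2 fold change was 0.26, beside 0.01 over all genes tested. The neuregulin ligand Nrg1, which binds Erbb3 and Erbb4, rose from 30.5, 40.0 and 21.5 normalized counts in Control to 239, 262 and 143 in knockout libraries (log2 fold change 2.80, SE 0.38, DESeq2 adjusted p = 1.21e-11). Among the 5 other ErbB ligands, Nrg1 was the 1 higher and Egf the 1 lower.

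Of 10 genes for ligand shedding and trafficking, 1 was higher and 1 lower, near the shares of all genes tested (7.74% and 7.18%). Rhbdf2, which encodes iRhom2, the partner that carries the sheddase Adam17 to the cell surface, rose from 376, 409 and 334 to 820, 1153 and 823 normalized counts (log2 fold change 1.32, SE 0.22, DESeq2 adjusted p = 1.22e-07). Adam17 itself had a log2 fold change of 0.03 (SE 0.15, adjusted p = 0.935). Adam12, another metalloprotease, fell by 1.29 on the log2 scale (SE 0.42, adjusted p = 0.0202), with its highest value, 3117 normalized counts, in Control 3, and did not pass without Control 3, TfR1 knockout 2 or TfR1 knockout 3. The fibroblast marker sum was highest in Control 3 as well, and its part in the Adam12 result was not tested.

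Of 24 receptor adaptors and members of the Ras and ERK cascade, 1 was higher and 0 were lower (all genes tested, 7.74% and 7.18%). At an unadjusted p under 0.05, 4 were higher and 0 lower. The share of all genes at that threshold was not counted, so nothing is read from it. With edgeR, 0 passed.

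Of the feedback inhibitors of the pathway, 9 of 20 were higher and 1 lower (all genes tested, 7.74% and 7.18%). The median log2 fold change was 0.55, and edgeR called 3 as higher. Dusp4, a phosphatase that acts on ERK, rose from 108, 119 and 109 to 525, 764 and 371 normalized counts (log2 fold change 2.30, SE 0.31, DESeq2 adjusted p = 8.26e-12). Dusp5, another ERK phosphatase, rose by 2.41 on the log2 scale (SE 0.56, adjusted p = 0.000433), from 18.1, 8.18 and 17.2 to 126, 46.1 and 57.7 normalized counts. Spred2, an inhibitor of Ras signalling, rose by 0.69 (SE 0.16, adjusted p = 0.000519). The other 6 higher genes were Dusp6, Errfi1, Cbl, Spry4, Spred3 and Ptpn1, and the lower gene was Socs5.

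Of 12 genes that respond to ERK, 11 had an adjusted p, 6 were higher and 1 lower (edgeR, 4 higher and 0 lower), with a median log2 fold change of 0.87. Across all genes tested, 7.74% were higher and 7.18% lower. The transcription factor Etv4 rose from 51.9, 80.0 and 44.1 to 262, 228 and 238 normalized counts (log2 fold change 2.04, SE 0.30, DESeq2 adjusted p = 4.36e-10). Plaur, the urokinase receptor, rose by 1.57 on the log2 scale (SE 0.26, adjusted p = 9.26e-08) and Hmga2, a chromatin protein, by 1.08 (SE 0.25, adjusted p = 0.000369). The other higher genes were Egr1, Etv5 and Epha2, and the cell cycle gene Ccnd1 was lower, so the list did not move in 1 direction. For Egr1, TfR1 knockout 1 was the highest library by far (14450 normalized counts, against 3527 and 2016 in the other knockout libraries), the library in which Areg and Hbegf were also highest.

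**Figure D5:**
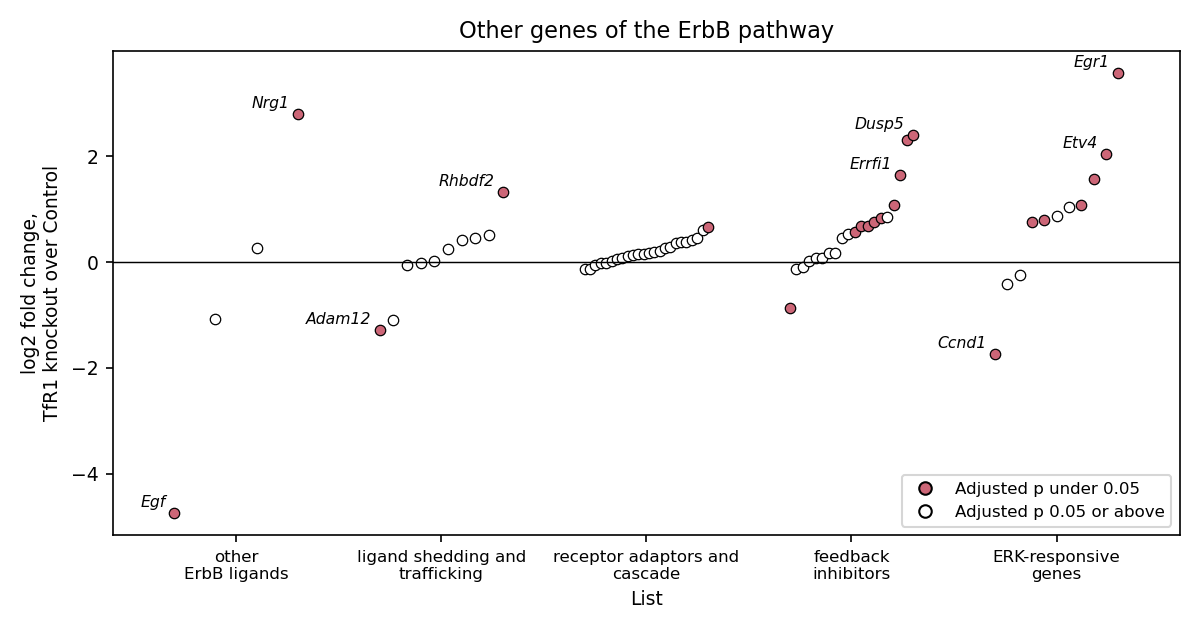
Log2 fold change of TfR1 knockout over Control for each tested gene of the 5 pathway lists, ordered within a list, with filled points at a DESeq2 adjusted p under 0.05. The 24 adaptors and cascade genes lay close to 0, Egf was the lowest point at -4.74, and 9 of 20 feedback inhibitors were higher (7.74% of all genes tested).

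Markers of other cells moved between the groups as well, where 7.74% of all genes tested passed as higher and 7.18% as lower. Of 11 tubule injury markers, 9 were higher and 0 lower (summed level 40287 to 46416 in Control and 104790 to 171276 in knockout libraries), and 7 of the 10 macrophage markers counted were higher (2784 to 4696 and 7737 to 9954). Collecting duct markers were higher for 4 of 7 (10043 to 20046 and 37742 to 65253), and 2 of 8 urothelial markers were higher (1248 to 1960 and 2300 to 3320). Aqp2 alone made up 2409 to 5747 of the collecting duct sum in Control and 17805 to 50719 in knockout libraries. The median log2 fold change of the collecting duct markers was 0.65, and that of the urothelial markers was 0.28. Krt20 was in both the urothelial and the tubule injury list, and is part of both sums. It had 20.6 to 48.2 normalized counts in Control and 294 to 1052 in knockout libraries. Of the 10 T cell and innate lymphoid markers counted and the 7 mast cell and basophil markers, 0 passed in either direction, and the basophil gene Mcpt8 was at 0 in every library. The remaining lists were proximal tubule (1 of 8 higher, 3 lower), podocyte (1 of 5 higher), endothelium (1 of 6 higher) and fibroblast (2 of 6 lower). The part of these cells in the levels of the ligands and receptors was not tested.

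The genes whose pattern over the 6 libraries was most like that of Areg were found by the root-mean-square difference of centred log2 values among 14439 other genes averaging 20 or more normalized counts. They were Cyp2j13 (0.49), Crisp1 (0.63), Sprr2g (0.82), Sprr2f (0.85) and Cyp2b10 (0.86), where 0 would be an identical pattern. All 5 were low in Control and high in knockout libraries, which likeness to Areg already requires. Each reached the mean of 20 through its knockout libraries. Crisp1 had 0.909 to 3.23 normalized counts in Control and 248 to 394 in knockout libraries, and Cyp2b10 0.825 to 3.64 and 135 to 168. Cyp2j13 had 7.42 to 18.3 normalized counts in Control and almost the same value in each knockout library (1456 to 1463). Control 3 was the highest Control library for Sprr2g (35.5 normalized counts, against 5.77 and 6.36) and Sprr2f (20.5, against 3.30 and 2.73), and the knockout libraries held 1182 to 2714 and 338 to 915. Both encode small proline-rich proteins of epithelial barriers, belong to a multigene family whose copies can share reads, and were highest in TfR1 knockout 1, as Areg was. By this measure none of the other ligands and receptors was near: the closest was Hbegf (2.73, in place 424), then Tgfa (2.81, in place 523) and Erbb3 (2.87, in place 670). The measure includes the size of the change, so a gene with a smaller fold change ranks far even with a like order of libraries. Hbegf, as Areg, was highest in TfR1 knockout 1. TfR1 knockout 2 and TfR1 knockout 3 were close for both genes (Areg 229 and 225, Hbegf 697 and 684 normalized counts). Before division by the size factors, TfR1 knockout 3 was above TfR1 knockout 2 for both (Areg 238 against 179 counts, Hbegf 723 against 545).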

How the data were processed

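Single-end poly-A libraries were made from 6 whole kidneys. The authors trimmed the reads with Trimmomatic, aligned them with TopHat2 2.0.11 to mm9, kept unique alignments and deposited raw counts per gene (HTSeq), with no normalization. The annotation and strand setting of the counting are not given in the sources used here, and without strand a gene and an overlapping antisense gene cannot be told apart. Reads that match several genes were left out. The labels name 3 separate samples per group, and p-values measure only the spread between them.

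Groups were taken from the labels. The 10 genes, the lists and the tests were chosen with earlier results of these data known. Knockout and Control were compared with DESeq2 1.42.0 in R 4.3.3 (Wald test, median-ratio size factors, Benjamini-Hochberg adjustment, no covariate), as in the study's methods, over the whole table. A gene passed at an adjusted p under 0.05, and 16509 genes with a mean count of at least 3.51 had one. Normalized counts are counts divided by the size factor. Exon lengths and positions came from the GENCODE annotation of mm9, matched by symbol for 20608 genes with 1 place. Exact intervals are Clopper-Pearson. The code was tested on simulated data. Total counts of 16591156 to 22898008 make counting error small for abundant genes, and it is not small for genes with few counts in a group, such as Ereg, Epgn, and Areg, Cxcl2, Cxcl5, Crisp1 and Cyp2b10 in Control.

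Named beside the 10 genes were Tfrc, Egf, the 3 genes with the smallest adjusted p in each pathway list, up to 5 passing genes within 500 kb of the chromosome 5 ligands, the 5 genes most like Areg, and cell type markers. Further genes of these lists were named after their values were seen. Values of some genes of the pathway lists are not reported here. Alternatives were edgeR 4.0.16, limma-voom (limma 3.58.1), other size factors and filters, the replicate number as a block, other lengths, and each library left out.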

Additional observations from a re-analysis of the deposited data

How the results depend on the processing

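There were 3 libraries per group, of which Control 1 held adrenal transcripts and Control 3 differed in tubule and fibroblast markers, and Ereg, Epgn, Cxcl5 and Areg in Control rest on few counts. edgeR and limma-voom called fewer genes: 921 and 941 in all, against 2463 with DESeq2, 2 and 2 of the 10 ligands and receptors as higher against 5, 9 and 8 pathway genes as higher against 18, 1 and 1 as lower against 4, and 3 and 2 neighbours on chromosome 5 against 5. Low-count Cxcl5 was not tested by edgeR, and the cause of the other losses was not tested. With each library left out, the counts ran from 1239 (without Control 1) to 3205 (without TfR1 knockout 1) genes in all, 3 (without Control 1) to 5 ligands and receptors as higher and 0 throughout as lower, 12 (without Control 1 or Control 2) to 19 pathway genes as higher and 3 to 6 (without TfR1 knockout 1) as lower, and 4 to 5 neighbours. Leaving out a library also lowers the number of samples. Other size factors, filters on low counts and outlier filtering kept each of these counts within 1.5 times its value.

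Same-numbered libraries did not deviate together (r = -0.0448, 0.0348 and 0.0867 over 14440 genes). With 3 libraries per group, some of which stood apart in markers, this cannot exclude that samples were paired. Under the replicate block 2172 genes passed, with 5 ligands and receptors higher and 0 lower, 16 pathway genes higher and 5 lower, and 4 neighbours. The log2 fold change of Epgn turned to -0.44 with the block and to -1.61 without TfR1 knockout 2, and that of Tfrc ran from -0.0949 (without Control 3) to 0.303 and was -0.0719 without TfR1 knockout 1. Levels per kilobase moved by less than 1 SD with the longest transcript's length or total-count factors in all 40 values compared.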
